A study of Rattus norvegicus with 6 samples.

Results

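Hmox1, Nqo1, Cat and Sod1 are 4 genes of the cell's defence against oxidants, and they were followed here in cardiac fibroblasts grown on fibrils of transthyretin. They were chosen by name and by their Ensembl rat gene IDs (ENSRNOG00000014117 for Hmox1, ENSRNOG00000012772 for Nqo1, ENSRNOG00000008364 for Cat and ENSRNOG00000002115 for Sod1), by a rule that uses no measured value. The choice was made with earlier results of these data known. The genes are 4 of the 27108 in the deposited count table, and all 4 were among the 12049 genes that passed the low count filter. The cells of both groups were fibroblasts from the ventricles of neonatal rats, cultured for 48 h on glass. The control group (UT) had a coat of fibronectin only, and the treated group (TTR) had fibronectin with transthyretin fibrils, so both groups share the fibronectin coat. Each group held 3 RNA sequencing libraries.

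Transthyretin, a carrier of thyroid hormone and retinol in blood, can misfold into amyloid fibrils that deposit in the heart. Enzymes keep reactive oxygen species low in cells. Superoxide dismutases such as Sod1, the copper and zinc enzyme of the cytosol, turn superoxide into hydrogen peroxide, and catalase (Cat), an enzyme of peroxisomes, breaks that peroxide down to water and oxygen. Heme oxygenase 1 (Hmox1), which opens the heme ring and yields biliverdin, iron and carbon monoxide, and the quinone reductase Nqo1 belong to the inducible part, switched on by the transcription factor NRF2 when its inhibitor KEAP1 is modified by oxidants or electrophiles. NRF2 binds the antioxidant response element (ARE), whose core reads TGACNNNGC. In the heart, Hmox1 and Nqo1 are widely used as readouts of this pathway.

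None of the 4 genes differed between fibronectin alone and fibronectin with fibrils by more than the spread among libraries. Their mean levels were close in the 2 groups, with the TTR mean between 0.965 and 1.07 times the UT mean in the fitted model. What set the genes apart was how far they varied among the libraries. Nqo1 ranged 3.60-fold over the 6 libraries, against 1.51-fold for Cat, 1.37-fold for Hmox1 and 1.27-fold for Sod1. Nqo1, Hmox1 and Cat were high and low in the same libraries, whereas Sod1 had another order.

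The promoters of these genes are shown as a description, and any relation to how the genes varied over the libraries was not tested. RefSeq sequences were matched by symbol for 3 of the 4 genes, Nqo1, Cat and Sod1, in build GRCr8. Each line gives the 250 bases before the annotated start of the gene, 5′ to 3′ on the gene's own strand. Capitals mark TATAAA (the TATA box) and CCAAT, or its reverse complement ATTGG (the CCAAT box).
Nqo1, chr19:52220268-52220517, minus strand: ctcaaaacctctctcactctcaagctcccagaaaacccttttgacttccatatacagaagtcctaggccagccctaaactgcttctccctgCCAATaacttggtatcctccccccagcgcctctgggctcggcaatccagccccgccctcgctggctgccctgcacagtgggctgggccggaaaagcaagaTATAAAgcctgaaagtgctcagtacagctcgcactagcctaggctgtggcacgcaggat
Cat, chr3:110329527-110329776, minus strand: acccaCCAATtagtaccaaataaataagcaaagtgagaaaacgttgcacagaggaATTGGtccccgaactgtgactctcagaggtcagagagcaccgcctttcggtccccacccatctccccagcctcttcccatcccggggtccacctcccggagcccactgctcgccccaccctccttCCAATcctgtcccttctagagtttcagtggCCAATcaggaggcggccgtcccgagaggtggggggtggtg
Sod1, chr11:42942573-42942822, plus strand: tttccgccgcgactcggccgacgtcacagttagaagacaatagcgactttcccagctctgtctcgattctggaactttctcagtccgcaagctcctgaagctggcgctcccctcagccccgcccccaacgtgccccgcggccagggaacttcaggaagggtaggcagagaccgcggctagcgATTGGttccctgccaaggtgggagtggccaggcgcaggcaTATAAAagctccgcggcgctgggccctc
Both strands were searched, and no match overlapped another. The ARE core was in none of the 3 windows, and 10.1% of 33469 rat promoter windows of this length held it. Bases outside the 250 shown were not searched, nor was any sequence of Hmox1. The lack of a match therefore does not show that a gene has no ARE. TATAAA was found 1 time in Nqo1 and 1 time in Sod1, and not in Cat, with 12.9% of all windows holding it. CCAAT was found 1 time in Nqo1, 4 times in Cat and 1 time in Sod1, and 34.0% of all windows held at least 1. The matches are a description of these letters and say nothing of which factor was bound in the cells.

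Library depth ran from 6574199 to 11774729 total counts, with 15476 to 16237 genes detected, and TTR replicate 1 was the deepest library. CPM values below are counts scaled to the library total and the TMM factor, which lay between 0.981 and 1.02. The labels do not say that replicates came from separate cell isolations, and p-values then measure only how far these libraries differ, which may be technical. The table pairs no row with a symbol. The pairing of the 4 IDs with their names comes from the choice of genes and was not checked against a table, and markers of fibroblasts and of other heart cells were not analysed here. In RNA from a whole culture, fewer cells of a type and less RNA per cell cannot be told apart.

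Nqo1, which reduces quinones without forming reactive semiquinones, was measured at 392, 288 and 171 CPM in UT replicates 1, 2 and 3. In TTR replicates 1, 2 and 3 it was measured at 130, 289 and 469 CPM. UT replicate 1 and TTR replicate 3 were high, UT replicate 3 and TTR replicate 1 were low, and the groups overlapped over most of their range. The group means were 283 ± 110 CPM for UT libraries and 296 ± 170 CPM for TTR libraries (SD, n = 3). On the log2 scale the difference, TTR minus UT, came to 0.06 (SE 0.42), and the adjusted p was 0.999 in edgeR's quasi-likelihood test (Benjamini-Hochberg, over all tested genes). Its 95% interval ran from -0.89 to 1.02, that is from 0.538-fold to 2.02-fold. Changes within that interval were therefore not resolved for Nqo1 in these libraries. The sign of the estimate rested on single libraries. Leaving out UT replicate 3 gave -0.20 and leaving out TTR replicate 3 gave -0.44. The value became 0.37 when UT replicate 1 was dropped, and 0.42 when TTR replicate 1 was. Counts of Nqo1 ran from 1156 to 3130 per library, where counting error alone gives a coefficient of variation of at most 2.94%, against 38.9% in UT and 57.2% in TTR.

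Hmox1, the inducible heme oxygenase, was measured at 132, 119 and 97.0 CPM in UT replicates 1, 2 and 3. The TTR replicates stood at 97.1, 107 and 133 CPM. The lowest and the highest library of each group were nearly level with those of the other. The means were 116 ± 17.9 CPM for UT and 112 ± 18.7 CPM for TTR (SD, n = 3). The log2 difference was -0.05 (SE 0.16), with a 95% interval of -0.41 to 0.31 and an edgeR adjusted p of 0.999. In folds the interval ran from 0.753 to 1.24, so a doubling of Hmox1 lay outside it.

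Cat, the peroxide-degrading enzyme, was measured at 153, 133 and 115 CPM in the UT replicates and at 113, 148 and 170 CPM in the TTR replicates. TTR held both the lowest and the highest library, and all UT values lay between them. The means were 134 ± 19.2 CPM for UT and 144 ± 28.8 CPM for TTR (SD, n = 3). The log2 difference was 0.10 (SE 0.17), with a 95% interval of -0.28 to 0.48 and an edgeR adjusted p of 0.999. This was the largest estimate of the 4 genes, and at 1.07-fold it was smaller than the 1.34-fold range among the UT libraries.

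Sod1, the cytosolic superoxide dismutase, was the most level of the 4. It was measured at 157, 199 and 191 CPM in the UT replicates and at 176, 190 and 178 CPM in the TTR replicates. UT replicate 1 was the lowest library, and all 3 TTR values lay inside the UT range. The means were 182 ± 22.7 CPM for UT and 181 ± 7.59 CPM for TTR (SD, n = 3). The log2 difference was -0.01 (SE 0.12), with a 95% interval of -0.28 to 0.26 and an edgeR adjusted p of 0.999. The interval in folds, 0.822 to 1.20, was the narrowest of the 4.

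**Figure D1:**
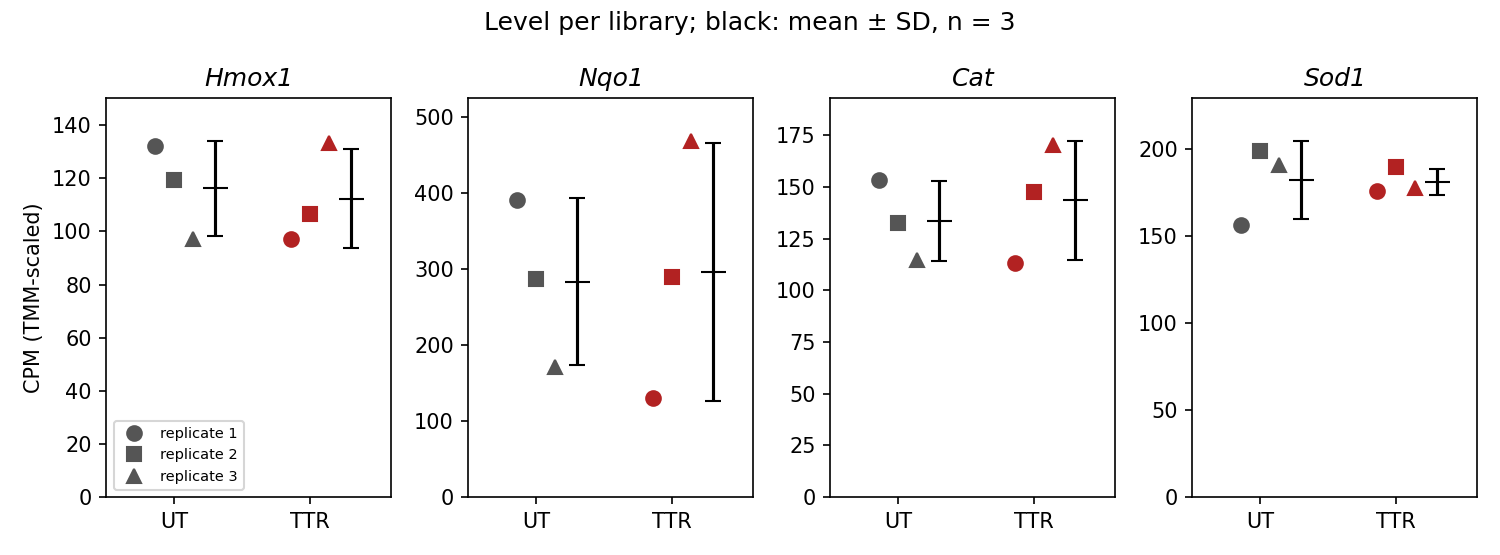
Level of each gene in every library, in CPM on a linear axis from 0, for UT (grey) and TTR (red); symbols give the replicate number, and black bars the mean ± SD of 3 libraries. The groups overlap for all 4 genes, and Nqo1 runs from 130 to 469 CPM within TTR alone.

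Of the 4 genes, 0 passed an adjusted p of 0.05 in the edgeR test, where 0.0083% of all tested genes did. At an unadjusted p under 0.05 the count was also 0 of 4, against 2.37% of all tested genes. DESeq2 and limma-voom called 0 of the 4 as well, against 0.199% and 0.0083% of the genes they tested. In none of the 4 did all TTR libraries lie on one side of all UT libraries, which was the case for 3.75% of tested genes with TTR higher and 3.1% with TTR lower. The sign of each estimate turned when at least 1 library was left out. With all libraries the estimates were split, with 2 of 4 lower on TTR beside 51.2% of all tested genes. Their median log2 difference was 0.03, and over all tested genes the median was -0.0038. By the exact two-sided permutation test of log2 CPM, for which 0.1 is the smallest p at this group size, p was 0.8 for Cat and 1 for Hmox1, Nqo1 and Sod1. A p that misses the threshold does not show that the levels were equal. In the fit with all libraries, the intervals bound the difference for Hmox1, Cat and Sod1 to between 0.753-fold and 1.40-fold of the UT level. The range was wider for Nqo1. These bounds were narrower in some other fits and wider in others. On the log2 scale the Hmox1 interval reached down to -0.55 without UT replicate 3, and that of Cat reached up to 0.64 without UT replicate 1.

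**Figure D2:**
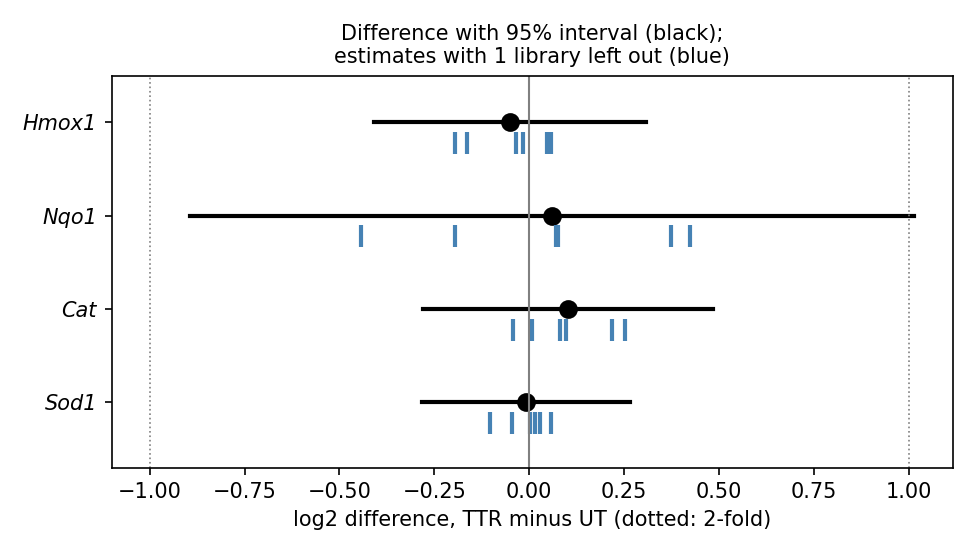
Log2 difference of each gene, TTR minus UT, from the edgeR fit (black point) with its 95% interval (black line), and the 6 estimates with 1 library left out (blue marks); dotted lines stand at a 2-fold change. All 4 intervals include 0, and that of Nqo1, from -0.89 to 1.02, is the widest.

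The spread of Nqo1 within the groups was large for a gene of its level. The standard deviation of log2 CPM within groups was 0.79 for Nqo1, 0.26 for Cat, 0.23 for Hmox1 and 0.14 for Sod1. Among the 1179 tested genes with a mean CPM within a factor of 2 of that of Nqo1, 99.4% had a smaller spread. The same share was 83.2% of 2579 genes for Cat, 77.5% of 3000 for Hmox1 and 40.9% of 2005 for Sod1. The biological coefficient of variation that edgeR estimated was 0.361 for Nqo1, where the trend for genes of its level was 0.147. For Sod1 it was 0.124 against a trend of 0.145. With scaling by library totals alone, Nqo1 still ranged 3.71-fold over the libraries.

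**Figure D3:**
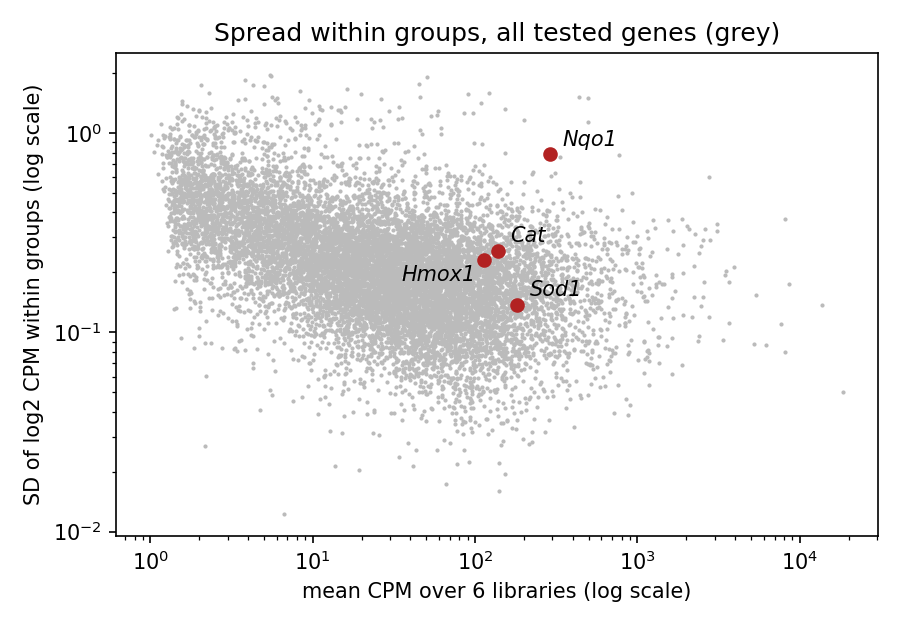
Standard deviation of log2 CPM within groups against mean CPM, both on log axes, for the 12049 tested genes (grey) and the 4 genes named (red). Nqo1, at 0.79, lies near the upper edge of genes of its level, and Sod1, at 0.14, lies inside the bulk.

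Of the 6 pairs of these genes, Nqo1 with Cat was the 1 pair whose correlation stayed under an adjusted p of 0.05 by both measures. The pairwise correlation of log2 CPM over the 6 libraries was r = 0.96 for Nqo1 and Cat (Spearman's rho = 1, with the 6 libraries in the same order). The exact permutation p was 0.00139 for r and 0.00278 for rho, adjusted to 0.00833 and 0.0167 over the 6 pairs. For Hmox1 and Nqo1 r was 0.93 (rho = 0.89, exact permutation p = 0.0167 and 0.0333, adjusted p = 0.05 and 0.0667). For Hmox1 and Cat r was 0.87 (rho = 0.89, exact permutation p = 0.0306 and 0.0333, adjusted p = 0.0611 and 0.0667). The pairs with Sod1 had r between -0.45 and -0.29 and rho between -0.31 and -0.26, with exact permutation p-values of 0.382 to 0.596 for r and 0.564 to 0.658 for rho (adjusted p from 0.573 to 0.596 and 0.658). Without the 2 libraries farthest from the median of the first gene, r was 0.90 for Nqo1 and Cat, 0.84 for Hmox1 and Nqo1 and 0.67 for Hmox1 and Cat. For Sod1 without such libraries r was 0.75 with Hmox1, -0.66 with Nqo1 and -0.56 with Cat, so the sign of its relation to Hmox1 rested on the libraries left out.

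Nqo1, Hmox1 and Cat each followed the largest axis of variation in the data. The first principal component of log2 CPM, computed from the 12045 tested genes other than these 4, held 39.5% of the variance and did not separate the substrates. Its scores, with the sign set so that Nqo1 is positive, were 18.5, 2.51 and -23.0 in UT replicates 1, 2 and 3 and -25.5, -2.68 and 30.2 in TTR replicates 1, 2 and 3. Nqo1 correlated with these scores at r = 0.98 and rho = 0.94 (exact permutation p = 0.00833 and 0.0167, adjusted p = 0.0111 and 0.0222 over 4 genes). For Hmox1 the values were r = 0.97 and rho = 0.94 (exact permutation p = 0.00278 and 0.0167, adjusted p = 0.0111 and 0.0222). For Cat they were r = 0.95 and rho = 0.94 (exact permutation p = 0.00556 and 0.0167, adjusted p = 0.0111 and 0.0222). Sod1 did not follow the component, at r = -0.39 and rho = -0.14 (exact permutation p = 0.454 and 0.803, adjusted p = 0.454 and 0.803). Without TTR replicates 1 and 3, the libraries farthest out, r was 0.97 for Hmox1, 0.99 for Nqo1, 0.88 for Cat and -0.68 for Sod1. A correlation over 0.95 with this component was found for 3 of the 4 genes and for 145 of the other 12045 (1.20%). A further 168 (1.39%) lay below -0.95.

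With the group mean removed from both the gene and the component, r was 0.99 for Hmox1, 0.98 for Nqo1 and 0.97 for Cat, and -0.39 for Sod1. The groups differed little in the component and in these genes, so removing the means could hardly change r. On the log2 scale Nqo1 deviated by 0.55, 0.10 and -0.65 in UT replicates 1, 2 and 3 and by -0.999, 0.15 and 0.85 in TTR replicates 1, 2 and 3. Hmox1 moved the same way over a smaller range, from -0.25 in UT replicate 3 to 0.26 in TTR replicate 3. The TMM factors had a similar order, at 1.01, 1.00 and 0.981 in UT and 0.987, 1.00 and 1.02 in TTR, a range of a few percent. The labels give no batch, day or cell isolation by which to repeat the comparison. What the component reflects, the cell types in the cultures included, was not tested.

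**Figure D4:**
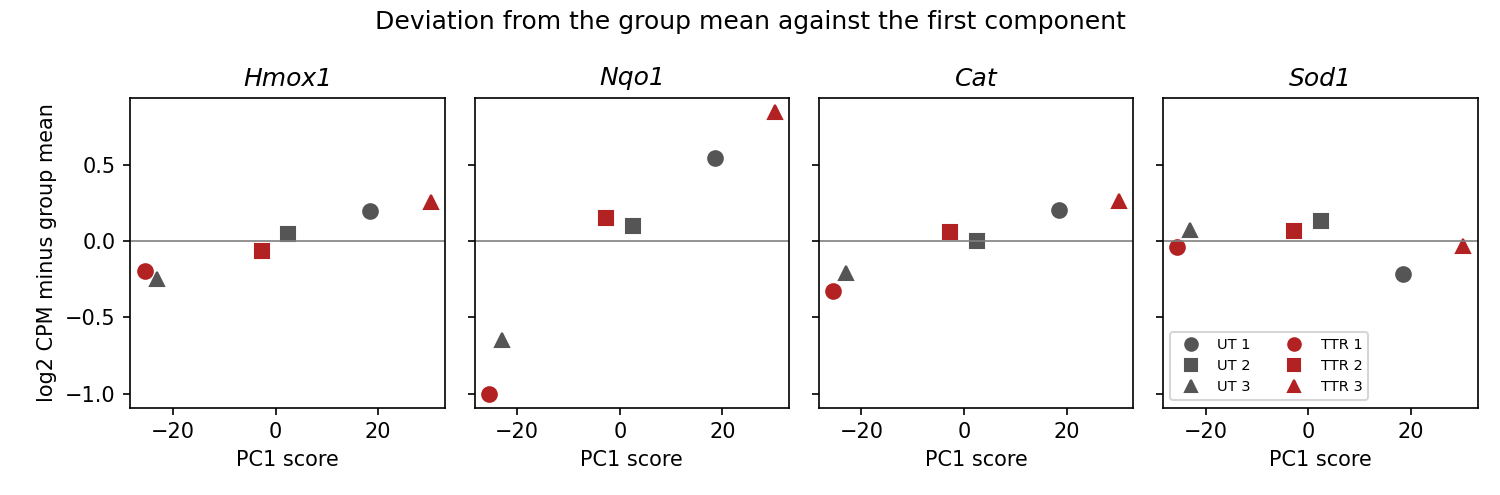
Log2 CPM minus the group mean of each gene against the score of the first principal component of the other tested genes, for UT (grey) and TTR (red) libraries, with symbols for the replicate number. Nqo1, Hmox1 and Cat climb from TTR replicate 1 and UT replicate 3 on the left to UT replicate 1 and TTR replicate 3 on the right, and Sod1 does not.

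Other genes followed these profiles closely. The tested gene most like Nqo1 over the 6 libraries was ENSRNOG00000031934 (r = 0.996), and 109 of the 12048 other tested genes had r over 0.95 with Nqo1. For Hmox1 the most alike was ENSRNOG00000011363 (r = 0.997, with 120 genes over 0.95). For Cat it was ENSRNOG00000008885 (r = 0.998, with 109 genes over 0.95). For Sod1 it was ENSRNOG00000020178 (r = 0.991, with 41 genes over 0.95). Such values are the highest of many over 6 libraries and are given as a description. The wider antioxidant genes, among them the glutathione, thioredoxin and ferritin genes, were not analysed here because no table used here pairs their IDs with symbols.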

How the data were processed

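RNA was sequenced from 6 libraries, 3 UT and 3 TTR, grouped by their description labels. The authors deposited raw counts per gene, whole numbers without normalization. STAR, featureCounts, edgeR and rn6 are named, without versions, per the submitters' processing notes. Not given in the sources used here are the annotation, the strand setting and how multi-mapping reads were handled, so reads shared by similar or overlapping genes may be split or lost.

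The fit used edgeR 4.0.16 (R 4.3.3): filterByExpr with a minimum count of 10, TMM factors and the quasi-likelihood F-test with group as the only term, two-sided, with Benjamini-Hochberg adjustment over 12049 genes. Log2 CPM used a prior count of 2. The SE comes from the fold and the F statistic. Single genes and correlations were tested by exact permutation of libraries, two-sided. The tests were tried on simulated counts, drawn independently for each gene and library. Such counts lack the component that many genes shared in these data, so the trial says nothing of its effect on the tests. Alternatives were other scalings, DESeq2 1.42.0, limma-voom (limma 3.58.1), other low count filters, a replicate block, each library left out and, chosen after seeing the data, surrogate variables (sva 3.50.0).

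The 4 genes were named by rule, and the most alike gene to each by its r. That rule uses no measured value, but the genes and lists were chosen with earlier results of these data known. The reference table (GRCr8) matched 0 of 27108 IDs, so the fixed lists of other antioxidant genes and of cell type markers were not analysed here.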

Additional observations from a re-analysis of the deposited data

How the results depend on the processing

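No call on Hmox1, Nqo1, Cat or Sod1 changed under any of the 16 alternatives: each gene missed the threshold in all of them, with adjusted p-values from 0.754 to 1. Over these alternatives the log2 difference ran from -0.196 to 0.0576 for Hmox1, -0.443 to 0.424 for Nqo1, -0.0415 to 0.254 for Cat and -0.103 to 0.0567 for Sod1, and in each gene both ends came from leaving out 1 library. The sign turned for Hmox1 without UT replicate 1 or TTR replicate 1, for Nqo1 without UT replicate 3 or TTR replicate 3, for Cat without TTR replicate 3, and for Sod1 without UT replicate 2 or 3 or TTR replicate 1 or 3. It also turned for Nqo1 with limma-voom (-0.0408) and with the replicate block (-0.0383), and for Sod1 with 2 surrogate variables (0.0033). With 1 surrogate variable the estimate for Nqo1 was 0.0049 (SE 0.12), where the SE without it was 0.42. Such variables are drawn from the very counts being tested.

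Over all genes, 1 was called. There were 37 calls with DESeq2 and 36 by edgeR without a low count filter. Requiring 1 CPM in 3 or more libraries left 3. With 1 and 2 surrogate variables there were 26 and 154. Leaving out 1 library gave 1 to 9 calls, with 9 when TTR replicate 1 was dropped and 2 when UT replicate 2 was. The cause was not tested.

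In the fit with a replicate block, 0 genes were called by edgeR (223 at an unadjusted p under 0.05), and the log2 difference was -0.0383 for Nqo1, whose sign turned, -0.05 for Hmox1, 0.09 for Cat and -0.0019 for Sod1. The replicate numbers did not match the libraries most alike. After removal of each group's mean, the correlation of same-numbered libraries was -0.38, 0.44 and -0.40 for replicates 1, 2 and 3. Only number 2 had its highest within the pair. UT replicate 3 had its highest with TTR replicate 1 (0.58), and UT replicate 1 with TTR replicate 3 (0.52). All other UT-TTR pairs were negative, but removing group means forces some negatives, so these say nothing of pairing. Whether the libraries most alike share an isolation or day is not labelled and was not tested. The main fit treats all libraries as unpaired.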
